A study of Mus musculus with 6 samples.

Results

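Fn3k and Fn3krp encode a pair of small-molecule kinases that act on sugars stuck to proteins, and their RNA was followed here in fetal livers with and without Klf1. The members were chosen by gene symbol, with the difference between the genotypes already known, and are 2 of the 19937 genes that a single-gene probe set measured. A probe set is a group of short array probes read as 1 value. Each of the 2 genes had 1 probe set, and 0 probe sets that name several genes included either.

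RNA came from whole livers of FVB/NJ mouse embryos at embryonic day 13.5, a stage at which the liver is mostly red cell precursors. The wildtype group held 3 livers and the Klf1-/- group 3 livers, each on an array of its own, so n = 3 per group throughout. Embryos came from timed matings of Klf1 +/- mice, and the livers were dissociated to single cells before RNA extraction. The labels do not describe how the Klf1 allele was made or whether embryos shared a litter, so errors measure the spread between these samples. Klf1 is the erythroid Krüppel-like factor, a transcription activator of red cell genes that binds CACCC-type DNA elements.

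Glucose reacts slowly with amino groups of proteins without any enzyme and leaves fructosamines, of which glycated hemoglobin is the best known. Fn3k (fructosamine 3-kinase) phosphorylates the bound sugar, which makes the adduct unstable so that it falls off and frees the amine. Fn3krp, its related protein, does the same for ribulosamines and psicosamines and does not accept fructosamines. Red cells keep their hemoglobin for life, and Fn3k activity is well known in mature red cells.

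The genes lie side by side on mouse chromosome 11 in the GRCm38.p6 gene order, Fn3krp first and Fn3k next. The RefSeq promoter table of that build held 1 of the 2 genes. Its window for Fn3krp is shown because Klf1 is a factor of CACCC-type elements; it covers the 250 bases before the gene start, chr11:121421123-121421372 on the + strand, 5′ to 3′. Capitals mark matches to CACCC and to CCNCNCCC, a wider form of the Krüppel-like consensus, both searched on both strands.

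Fn3krp promoter: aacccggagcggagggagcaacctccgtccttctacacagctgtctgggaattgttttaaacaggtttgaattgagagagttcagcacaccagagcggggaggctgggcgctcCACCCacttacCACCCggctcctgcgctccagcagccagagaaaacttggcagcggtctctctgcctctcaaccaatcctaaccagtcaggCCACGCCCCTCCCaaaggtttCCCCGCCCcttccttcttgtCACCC

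The window held 3 matches to CACCC, all on the + strand, starting 137, 126 and 5 bases before the gene start. Among 32851 promoter windows of the same length, 52.0% held at least 1 CACCC and 6.9% held at least 3. It also held 3 matches to CCNCNCCC on the + strand, none of which overlaps a CACCC. The first 2, CCACGCCC and CCCCTCCC, share letters and start 46 and 41 bases before the gene start. The other, CCCCGCCC, starts 25 bases before it. At least 1 such match stood in 45.9% of the windows and at least 3 in 16.7%. A search for GATAA, the core of GATA factor sites, on both strands gave 0 matches here, and 22.6% of all windows held it. CCAAT, likewise searched on both strands, matched 1 time and was present in 33.8% of windows. These matches describe letters, and binding was not measured.

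Fn3k was bright in every wildtype liver and dim in every knockout liver. Its log2 intensity read 10.19, 10.42 and 10.40 in wildtype replicates 1, 2 and 3, and 6.07, 5.36 and 5.48 in knockout replicates 1, 2 and 3. The groups did not overlap, and the lowest wildtype array stood 4.12 log2 units above the highest knockout array. On the linear scale the wildtype arrays read 1172 to 1372 and the knockout arrays 41.1 to 67.3. The means were 10.34 ± 0.12 and 5.64 ± 0.38 (SD, n = 3), a difference of -4.70 ± 0.16 (limma estimate ± SE). Here and below a difference is the knockout mean less the wildtype mean, in log2 units.

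The knockout arrays had a median of 6.71 to 6.76 and a lower quartile of 5.16 to 5.23 over all their probe sets. The knockout values of Fn3k therefore lay between the lower quartile and the median of their arrays, near the dim end of the scale. RMA values of dim probe sets hold a share of background, so whether any Fn3k transcript remained cannot be read from them. Nor is an order of the 3 knockout livers read from them.

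Fn3krp was also lower in every knockout liver, but stayed well within the measured range. It read 11.16, 11.09 and 11.11 in wildtype replicates 1 to 3, and 8.15, 8.50 and 8.27 in the knockout replicates. The lowest wildtype array was 2.59 log2 units above the highest knockout array, so the groups were again apart. The linear intensities ran from 2173 to 2284 in wildtype and from 284 to 362 in knockout. The means of 11.12 ± 0.04 and 8.30 ± 0.18 (SD, n = 3) differed by -2.81 ± 0.10 (limma estimate ± SE), a 7.03-fold lower level.

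**Figure D1:**
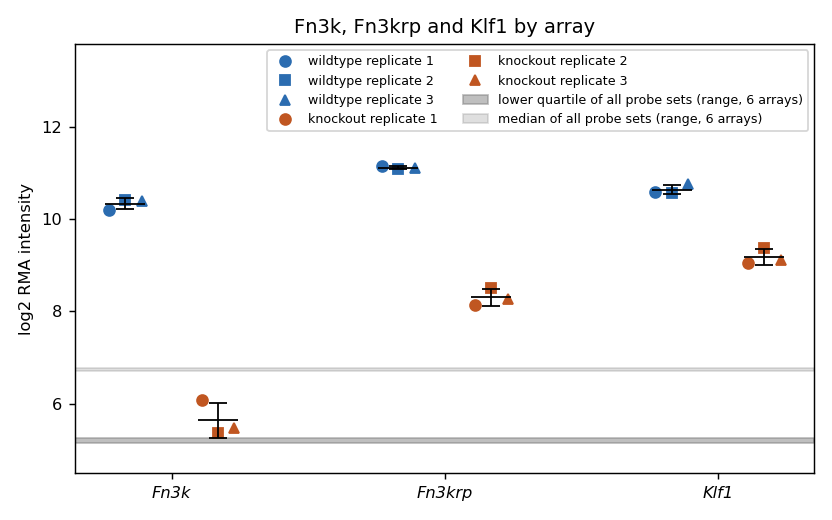
Log2 RMA intensity (y axis) of Fn3k, Fn3krp and Klf1 on each of the 6 arrays, blue for wildtype and orange for knockout; black bars give the mean and SD of 3 arrays, and grey bands the range over arrays of the lower quartile and median of all probe sets. Fn3k at 5.36 to 6.07 in the knockout lies between the bands, while Fn3krp at 8.15 to 8.50 and Klf1 at 9.05 to 9.38 lie above both.

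Both differences belong to the contrast by which the genes were chosen, so they carry no test here. Over all 19937 genes, 8.26% were called lower and 10.8% higher in the knockout at a Benjamini-Hochberg adjusted p under 0.05 (limma), and in 18.5% every knockout array lay below every wildtype array. By size, 1 gene differed more negatively than Fn3k and 17 more than Fn3krp. The median over all genes was -0.02.

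The targeted gene itself read 10.59, 10.58 and 10.76 in wildtype and 9.05, 9.38 and 9.12 in knockout replicates 1 to 3, and Klf1 fell by 1.46 ± 0.10 (limma, adjusted p = 3.7e-06). The source of the signal left on the Klf1 probe set in the knockout was not tested. Among the knockout livers, replicate 2 was highest for Klf1 and for Fn3krp. Some erythroid markers treated below were also highest there, such as Rhd and Alas2, and others, such as Ank1 and Kel, in replicate 3. With 3 livers no relation between the levels of Klf1 and Fn3krp can be tested.

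Fn3k and Fn3krp did not differ from wildtype by the same amount. Taken within each array, Fn3k minus Fn3krp was -0.96, -0.66 and -0.72 in wildtype and -2.07, -3.14 and -2.78 in knockout replicates 1 to 3. The gap was thus wider in each of the 3 knockout livers than in any wildtype liver. The means of -0.78 ± 0.16 and -2.67 ± 0.54 (SD, n = 3) differed by -1.88 ± 0.33 (SE from the pooled SD), a value that rests on the dim knockout readings of Fn3k and is given without a test because both genes were chosen from this contrast. The size of this gap compares log2 differences, not levels, since levels of separate probe sets are not on a common scale.

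The genes around the pair did not share the size of its difference. The 10 protein-coding genes before the pair and the 6 after it to the last in the table were taken, and 15 of these 16 had a single-gene probe set. Of the 15, 3 fell and 0 rose (20.0% called, against 19.1% of all genes), with a median change of -0.06 beside -0.02 over all genes. Tbcd, the next gene after Fn3k and a tubulin folding cofactor, fell by 0.46 ± 0.08 (limma, adjusted p = 0.0018). It read 9.74, 9.76 and 9.84 in wildtype against 9.25, 9.37 and 9.33 in knockout replicates 1 to 3, without overlap. Narf, a nuclear protein that binds prelamin A, fell by 0.27 ± 0.07 (adjusted p = 0.0275). That call was lost without any 1 array other than wildtype replicate 1, with adjusted p between 0.053 and 0.117. Tex19.2, at the far end of the window and named after its values were seen, fell by 0.34 ± 0.10 (adjusted p = 0.0345). The count was 1 without wildtype replicate 3, knockout replicate 2 or knockout replicate 3.

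The immediate neighbour before Fn3krp, the small GTPase gene Rab40b, differed by -0.10 ± 0.10 and was not called. Foxk2, a forkhead factor, at 0.04 ± 0.08, Wdr45b, an autophagy protein, at -0.0062 ± 0.08, and Cybc1, a chaperone of the phagocyte oxidase, at 0.0086 ± 0.08 were not called either. After the pair, Zfp750 at -0.16 ± 0.08, B3gntl1 at 0.07 ± 0.08, Metrnl at -0.31 ± 0.11 and Ptchd3 at 0.03 ± 0.08 were not called. Metrnl was called without knockout replicate 1, at -0.44 (adjusted p = 0.0123). The lowest neighbour, Tbcd at -0.46, and the highest, Hexdc at 0.25, bound the 15 changes.

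**Figure D2:**
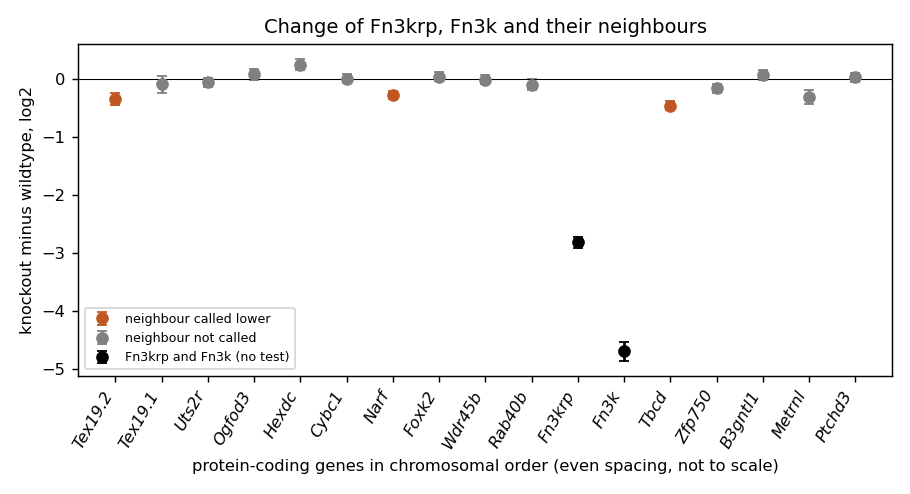
Knockout minus wildtype change on the log2 scale (y axis, ± SE of the limma fit, n = 3 per group) of Fn3krp, Fn3k and the 15 measured neighbours in chromosomal order, evenly spaced. The pair stands at -2.81 and -4.70, and the neighbours lie between -0.46 and 0.25.

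The other enzymes that limit glycation changed by -0.71 to 0.83, less than either member of the pair. Of 15 measured enzymes that clear reactive sugars and dicarbonyls or handle their products, 2 fell and 2 rose (26.7% called, against 19.1% of all genes), with a median of 0.14. Both that fell belong to the glyoxalase route, which turns methylglyoxal into lactate with glutathione. Glo1, its first enzyme, read 11.89, 12.02 and 12.10 in wildtype and 11.47, 11.65 and 11.55 in knockout replicates 1 to 3, and fell by 0.45 ± 0.09 (limma, adjusted p = 0.0046). Hagh, which completes the route by releasing lactate, read 9.64, 9.60 and 9.55 against 8.94, 8.92 and 8.79, and fell by 0.71 ± 0.08 (adjusted p = 0.00011). Neither Glo1 nor Hagh overlapped between the groups, and their differences were smaller than those of Fn3k and Fn3krp.

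Akr1b10, an aldo-keto reductase, rose by 0.83 ± 0.12, from 8.07 to 8.89. Glod5, a dim glyoxalase-domain gene at 5.00 in wildtype, rose by 0.38 ± 0.09. It missed the threshold when knockout replicate 3 was left out (adjusted p = 0.0596). The count of rises was then 1, and the lower genes numbered 3 without knockout replicate 1. The other 11 were not called, among them the aldehyde reductase Akr1a1 at 0.22 ± 0.08, the stress protein Park7 at 0.14 ± 0.09 and the phosphatase Mdp1 at 0.11 ± 0.10.

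Receptors and scavengers of glycated proteins showed 1 rise and 0 falls among 10 (10% called, against 19.1% of all genes), with a median of -0.04. Olr1, a lectin-like scavenger receptor, rose by 0.51 ± 0.09 (limma, adjusted p = 0.0030), while Ager, the receptor of advanced glycation end products, differed by -0.17 ± 0.11 and was not called. Without wildtype replicate 2 the counts were 1 rise and 1 fall, and without wildtype replicate 3 they were 2 and 0.

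Fructose and pentoses are the sugars closest to the adducts that the pair acts on. In the polyol and fructose list 1 of 7 fell and 1 rose (28.6% called, against 19.1% of all genes), with a median of -0.17. The sugar transporter gene Slc2a8 fell by 0.36 ± 0.09, a call lost without knockout replicate 1 (adjusted p = 0.0536). Khk, the kinase of free fructose, rose by 0.33 ± 0.09 but missed the threshold when wildtype replicate 1, wildtype replicate 3 or knockout replicate 3 was left out (adjusted p from 0.0573 to 0.118).

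In the pentose phosphate list, the source of ribose phosphates, 4 of 11 rose and 0 fell (36.4% called, against 19.1% of all genes), with a median of 0.07. The rises were Tkt (transketolase) by 0.60 ± 0.08, Pgd, the second dehydrogenase of the route, by 0.48 ± 0.08, Pgls by 0.36 ± 0.09 and Taldo1 (transaldolase) by 0.29 ± 0.08. Without knockout replicate 2 or 3 the count was 2. Pgls then lost its call (adjusted p = 0.0562 and 0.0607). Taldo1 lost its call without any 1 array other than knockout replicate 1 (adjusted p from 0.0571 to 0.140). Rbks, which phosphorylates free ribose, differed by 0.07 ± 0.10 and was not called.

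Genes of glucose uptake and glycolysis went both ways. Of 17, 12 rose and 3 fell (88.2% called, against 19.1% of all genes), with a median of 0.58, and the counts were the same with any 1 array left out. The 3 that fell were the glucose transporter genes Slc2a4 and Slc2a1, with changes of -2.41 ± 0.18 and -1.99 ± 0.08, and the red cell pyruvate kinase gene Pklr, at -2.17 ± 0.07. Slc2a4, the insulin-responsive transporter, read 8.33, 8.55 and 8.96 in wildtype and 6.14, 5.91 and 6.54 in knockout replicates 1 to 3. Other members of the same families rose: the transporter gene Slc2a3 by 0.95 ± 0.08 and the pyruvate kinase gene Pkm by 1.19 ± 0.08. The largest rise was that of Pfkp, a phosphofructokinase, by 1.37 ± 0.09 (limma, adjusted p = 2.3e-06). The most negative value in this list, -2.41 for Slc2a4, was less negative than that of Fn3krp. The knockout readings of Slc2a4 lay below the medians of their arrays (6.71 to 6.76), so background may understate its difference.

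Fn3k is also known to deglycate Nrf2, the transcription factor of the antioxidant response encoded by Nfe2l2, in other cells. Nfe2l2 itself differed by 0.12 ± 0.08 and was not called. Of 14 genes in the list of Nrf2 and its targets, 8 rose and 1 fell (64.3% called, against 19.1% of all genes), with a median of 0.32. Srxn1, which repairs oxidised peroxiredoxins, rose by 1.68 ± 0.08, from 9.24 to 10.92 (limma, adjusted p = 1.6e-07). The cystine carrier gene Slc7a11 rose by 0.82 ± 0.11, the exporter gene Abcc1 by 0.64 ± 0.08 and Gsr (glutathione reductase) by 0.40 ± 0.08. The 1 that fell was Gclc, with a change of -0.30 ± 0.08 (limma, adjusted p = 0.0173). Nqo1, a target often used as a readout, differed by -0.14 ± 0.11 and was not called. The rises numbered 5 without knockout replicate 2, and 0 members fell without wildtype replicate 2 or knockout replicate 3. Nrf2 protein and its glycation were not measured, and a link of these changes to Fn3k was not tested.

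Kinases of a related fold act on other small molecules. Of 5 measured, 3 rose and 0 fell (60% called, against 19.1% of all genes), with a median of 0.30. Etnk1, an ethanolamine kinase, rose by 0.43 ± 0.08, and Acad11 and Acad10, acyl-CoA dehydrogenases with such a kinase domain, by 0.50 ± 0.12 and 0.30 ± 0.07. Both Acad calls were lost without knockout replicate 2 or 3, which left 1 rise. Acad11 then had adjusted p of 0.0568 in both cases, and Acad10 had 0.0523 and 0.0617. Acad10 also lost its call without wildtype replicate 2 (adjusted p = 0.0509).

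**Figure D3:**
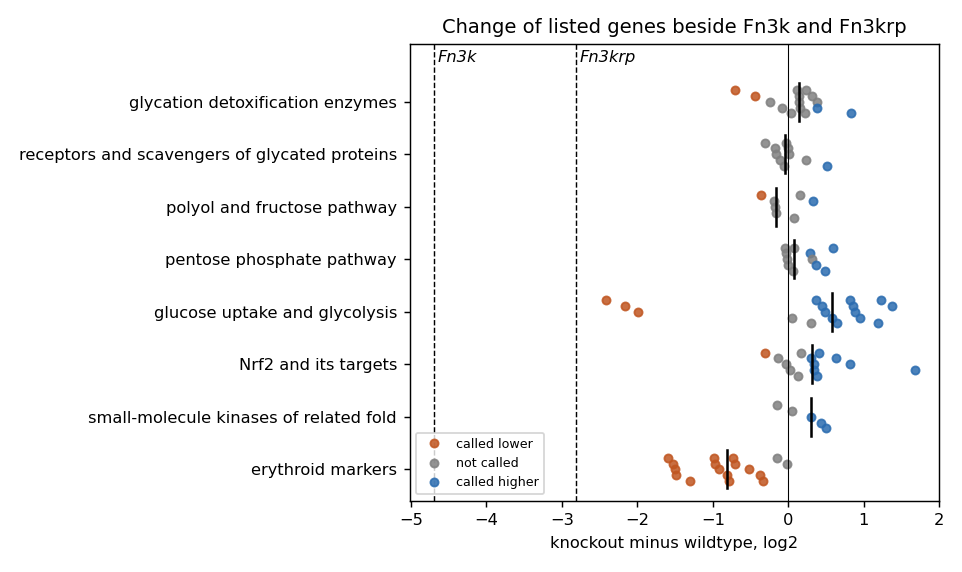
Knockout minus wildtype change on the log2 scale (x axis) of each measured gene of 8 lists (rows), coloured by its call in the limma fit at an adjusted p under 0.05; short black lines are list medians and dashed lines the values of Fn3k and Fn3krp. The listed genes lie between -2.41 and 1.68, and erythroid markers have a median of -0.82.

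In a whole liver, fewer cells of a type and less RNA per cell cannot be told apart, so the values of Fn3k and Fn3krp are given beside markers of the cells present. Of 17 measured erythroid markers 15 fell and 0 rose (88.2% called, against 19.1% of all genes), with a median of -0.82. Their summed intensity ran from 90960 to 100600 in wildtype and from 49690 to 54160 in knockout. Of these, Ermap, a red cell adhesion protein, had the most negative change at -1.59 ± 0.07, and 0 of the 17 differed by as much as Fn3krp. That count depends on which markers were listed. Tspo2 and Dmtn, red cell genes outside the list that are named below for their likeness to Fn3k, changed by -3.86 and -3.73. The erythroid regulator Gata1 at -0.02 ± 0.08 and the membrane protein Rhag at -0.15 ± 0.08 were not called. With each array centred on the erythroid markers, an alternative chosen after the data were seen, Fn3k differed by -3.82 and Fn3krp by -1.94. That centring adds the same 0.88 to every gene, so that 19632 of the 19937 genes were called under it; it sets the pair beside the middle erythroid marker and is no correction for the share of red cells.

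Among markers of other cells, 7 of 7 measured megakaryocyte genes rose (against 10.8% of all genes higher). The megakaryocyte count was 6 to 7 with 1 array left out. Their summed intensity ran from 15020 to 15810 in wildtype and from 19380 to 25320 in knockout. Macrophage genes had 6 of 9 lower (against 8.26% of all genes) and 0 higher, with a sum of 4732 to 5760 against 3551 to 3989. The macrophage count was 4 without wildtype replicate 3 or knockout replicate 1. Of 7 granulocyte genes 4 rose (57.1% called, against 19.1% of all genes), with 2 to 4 when 1 array was left out, and their sum was 4777 to 5136 against 6012 to 7474. Hepatoblast genes had 2 of 10 lower (20.0% called, near the 19.1% of all genes), with sums of 64030 to 77660 and 62280 to 66670 that overlapped, and with 1 array left out 0 to 2 were lower. In 6 endothelial genes 1 rose, with 0 to 2 rising and 0 to 1 falling when 1 array was left out. In 6 mesenchymal genes 1 fell, with 0 to 2 under the same change, and both shares (16.7% called) were near that of all genes. No marker of these lists was at 0, and the part of these shifts in the values of Fn3k and Fn3krp was not tested.

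Other genes were taken by the nearness of their profile over the 6 arrays to that of each member. Likeness was taken over all measured genes as the root mean square difference between log2 profiles, each set to 0 at its own wildtype mean. These genes are near by construction, so their differences carry no test. Nearest to Fn3k was Sowaha, an ankyrin repeat gene, at 0.28 log2 units. It read 9.96, 9.80 and 10.06 in wildtype and 5.38, 5.30 and 5.51 in knockout replicates 1 to 3. Slc22a4, an organic cation and ergothioneine transporter, followed at 0.58, the tetraspanin gene Tspan8 at 0.69, Tspo2, an erythroid cholesterol-binding membrane protein, at 0.69, and Dmtn, an actin bundler of the red cell membrane, at 0.72. In knockout replicates 2 and 3 each of these 5 genes stood nearer to its own wildtype mean than Fn3k did. Fn3k and Sowaha were both dim in the knockout, with means of 5.64 and 5.40, so no deeper loss of Fn3k is read from this.

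Fn3krp had closer companions by this measure. No tighter relation is read from that, since only 1 gene differed more negatively than Fn3k, against 17 for Fn3krp. Kcnn4, the calcium-activated potassium channel of red cells, lay at 0.10 log2 units and read 11.17, 11.27 and 11.32 in wildtype against 8.46, 8.64 and 8.44 in knockout replicates 1 to 3. In both Fn3krp and Kcnn4, knockout replicate 2 was the highest knockout liver, as it was for some of the erythroid markers. Dusp1, a phosphatase of MAP kinases, lay at 0.15, Sox6, a repressor of embryonic globin genes, at 0.16, Apol8, an apolipoprotein L gene, at 0.17, and Klf3, a Krüppel-like repressor, at 0.19. Fn3krp stood in place 17 by nearness to Fn3k, at 1.37 log2 units, and Fn3k in place 265 by nearness to Fn3krp. The pair are neighbours on the chromosome but not the nearest profiles of each other by this measure. The measure counts the size of each difference, so these places largely restate the unequal differences of the pair. They also rest on the dim knockout readings of Fn3k and carry no separate test of likeness.

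**Figure D4:**
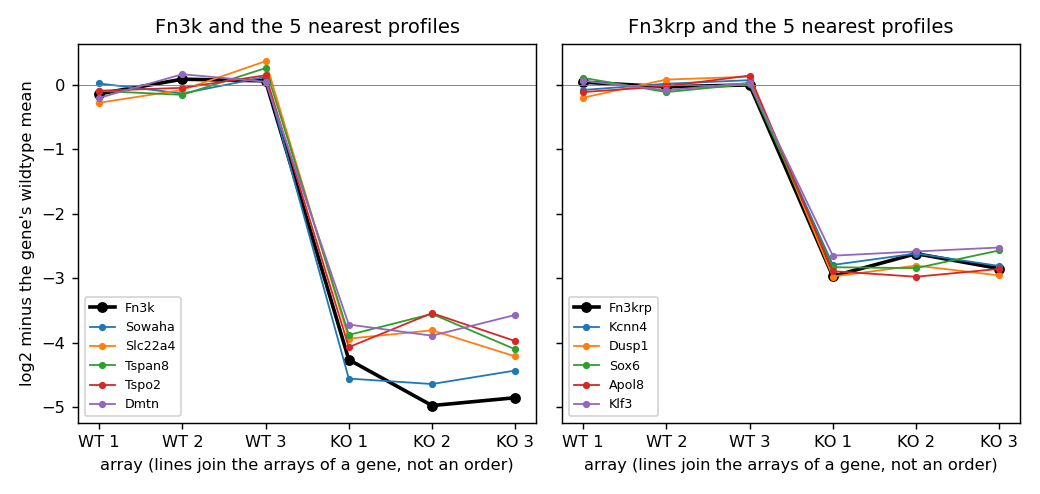
Log2 intensity minus each gene's own wildtype mean (y axis) on the 6 arrays (x axis) for Fn3k (left) and Fn3krp (right), in black, with the 5 genes of nearest profile in colour. Sowaha runs closest to Fn3k, at a root mean square difference of 0.28, and Kcnn4 closest to Fn3krp, at 0.10.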

How the data were processed

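RNA of 6 livers was hybridised to 1-colour Affymetrix Mouse Gene arrays. The submitters' processing notes name RMA and Affymetrix Power Tools 1.8.6 for the deposited intensities. Genome build and annotation: not given in the sources used here. Arrays are equalised by RMA, so a change in total RNA cannot be seen. Values are linear, and log2 was taken before the fit. Of 34760 probe sets, the platform annotation gave 1 gene to 21640, several to 1321 and none to 11799. The brightest single-gene probe set stood for a gene.

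The genotypes were compared in limma 3.58.1 (lmFit, eBayes; R 4.3.3), 2-sided, group as sole term, Benjamini-Hochberg adjustment over 19937 genes, called under 0.05. An exact permutation test of 3 against 3 cannot go below p = 0.10. The fit was tested on simulated data.

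The members, lists and tests were chosen with earlier results of these data known. Named were Klf1, the 5 nearest neighbours on each side, the 5 nearest profiles of each member, and up to 4 called genes with the largest change per list. Other listed genes, Tex19.2 and Hexdc were named after their values were seen. Gene order and promoters are from RefSeq GRCm38.p6; coordinates are of that build. Alternatives were 3 other scalings, dim filters, probe set rules, array weights, variance models, the replicate block, a threshold of 0.01 and leaving out each array. The number of arrays limits the precision.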

Additional observations from a re-analysis of the deposited data

How the results depend on the processing

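The differences of Fn3k (-4.91 to -4.56 with 1 array left out), Fn3krp (-2.91 to -2.74) and Fn3k minus Fn3krp (-2.18 to -1.65) moved by less than the spread between replicates under the 3 other scalings, array weights and each array left out. Filters, probe set rules, variance models and the block cannot move them, since each gene has 1 probe set and the groups are balanced. Centring on erythroid markers, which adds 0.88 to every gene, gave -3.82 for Fn3k and -1.94 for Fn3krp. Glycation enzymes that rose numbered 4 with quantile normalization, 5 with trend and robust variance, 1 at an adjusted p under 0.01 and 1 to 3 with 1 array left out, and the causes were not tested. Neighbours called numbered 1 with housekeeping centring, with the replicate block or at an adjusted p under 0.01, 5 with array weights and 1 to 3 with 1 array left out. Changes near 0 turned sign: Cybc1 was -0.052 with quantile normalization, -0.056 with 75th percentile centring, -0.0044 with housekeeping centring and -0.027 to 0.037 with 1 array left out; Rab40b was 0.0038 with quantile normalization; Foxk2 was -0.022 and Ptchd3 -0.032 with 75th percentile centring; Wdr45b ran from -0.059 to 0.027 with 1 array left out. Deviations of same-numbered arrays correlated at -0.16, -0.22 and 0.18 over genes. Wildtype replicates 1 and 2 each correlated higher with another knockout array (0.21 and 0.33), while for replicate 3 the same-numbered array was the highest. The labels give no litter, so whether the replicate numbers pair the arrays cannot be decided. The block called 3498 genes in place of 3809. With 1 array left out the count was lowest, 2409, without knockout replicate 2. Of 43 named genes 29 kept their direction and side of the threshold under all alternatives but the erythroid centring, which is not counted here. Dimness limits the low end of Fn3k, whose knockout values may understate its difference.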
